A study of Danio rerio with 3 samples.

Results

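The genes described here encode the enzymes that attach ubiquitin to proteins and those that take it off again. They were chosen by symbol, as the genes listed under names that begin with usp and a digit, otud, uchl, ube2, or uba with a digit of 1 to 7, and that reached 1 FPKM (a read level corrected for transcript length and for the size of the library) in at least 1 library. Of 25386 genes in the table, 104 carried such a symbol and 92 passed the level, out of 14349 genes that reached it in all. The 92 comprised 4 activating enzyme (E1) genes, 37 conjugating enzyme (E2) genes, 50 deubiquitinase genes of the families USP (40), OTUD (7) and UCHL (3). The remaining 1 fits the letters of the rule but belongs to none of these classes, and is counted but not described.

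Poly(A) RNA was sequenced from whole zebrafish (Danio rerio) embryos of wild-type genotype that had been freed of their chorions. For one library, 1-cell embryos received 0.65 ng of wheat germ agglutinin (WGA) in 1 nl through the yolk and were collected at 4.3 hours post fertilisation (hpf). This plant lectin attaches to sugar-bearing proteins of the nuclear pore and hinders passage through it. A second came from embryos injected in the same way and collected at 5 hpf, when their shape resembled dome stage, and the third from embryos with no treatment listed, collected at 4.3 hpf at dome stage. The control is thus matched in time to the first library and in stage to the second. No mock injection is listed for it, so the effect of WGA and that of injection cannot be told apart, and the number of embryos per library is not stated. With 1 library in each group there was no replicate and no test, and every difference below is a difference between 2 libraries.

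Ubiquitin is loaded by an E1 onto an E2, and an E2 together with a ligase (E3) joins it to a target, where chains of different shape mark the target for the proteasome or change its partners or place. Deubiquitinases cut ubiquitin from targets, trim chains and free ubiquitin from its precursors. Related E1 and E2 enzymes handle ubiquitin-like proteins such as SUMO and NEDD8. In the early embryo these enzymes are first supplied by maternal mRNA, and the pathway removes maternal proteins and drives the rapid cleavage cycles through the anaphase-promoting complex.

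The libraries summed to 401114 FPKM for WGA at 4.3 hpf, 411178 FPKM for WGA at 5 hpf and 430459 FPKM for the control, and FPKM values give no read numbers, so the absolute depth behind each value is unknown. Markers of the blastula layers were listed in every library, and of 8 markers of differentiated cells 7 stayed below 1 FPKM in all of them. Summed levels of 6 enveloping layer markers were 76.7 FPKM in WGA embryos at 4.3 hpf, 203 FPKM in WGA embryos at 5 hpf and 521 FPKM in control embryos. Those of 6 yolk syncytial layer markers were 92.2, 188 and 630 FPKM in the same order. Of 5 blastoderm markers, sox3, vox and sox19a were 2-fold or more lower in both WGA libraries than in control, and nanog and pou5f3 were not. Over all 5 blastoderm markers the median log2 ratio was -2.17 at the matched time and -1.79 at the matched stage. Of 6 germ plasm markers, buc and tdrd6 were 2-fold or more higher in both WGA libraries than in control, and the other 4 were not. These marker levels move with the comparisons below, and their part in the results was not tested. In whole embryos, fewer cells of a type and less RNA per cell cannot be told apart.

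As among all genes, most members lay within 2-fold of control in WGA embryos. The members that differed by 2-fold or more were nearly all higher in WGA embryos. At the matched time, 12 of 92 members (13.0%) lay 2-fold or more above control in WGA embryos and 1 (1.09%) lay as far below, against a background of 7.21% of 14263 genes higher and 8.97% lower. At the matched stage (5 hpf in WGA embryos, 4.3 hpf in control embryos), 11 of 92 (12.0%) were higher and 1 was lower, against 5.3% of 14158 genes higher and 7.92% lower. Both counts are set against the same control library. At the lower bar of 1.5-fold, the share that was higher lay close to the background at the matched time (18.5% of members, 18.1% of genes), while 4.35% of members and 15.3% of genes were lower. At the matched stage that bar gave 17.4% of members and 13.3% of genes higher, and 4.35% of members and 15% of genes lower. Ratios are log2 of (FPKM + 1) in one library over (FPKM + 1) in the other, folds are given on that scale, and adding 1 understates the change of low genes. Genes were counted where at least 1 library of the pair reached 1 FPKM.

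**Figure D1:**
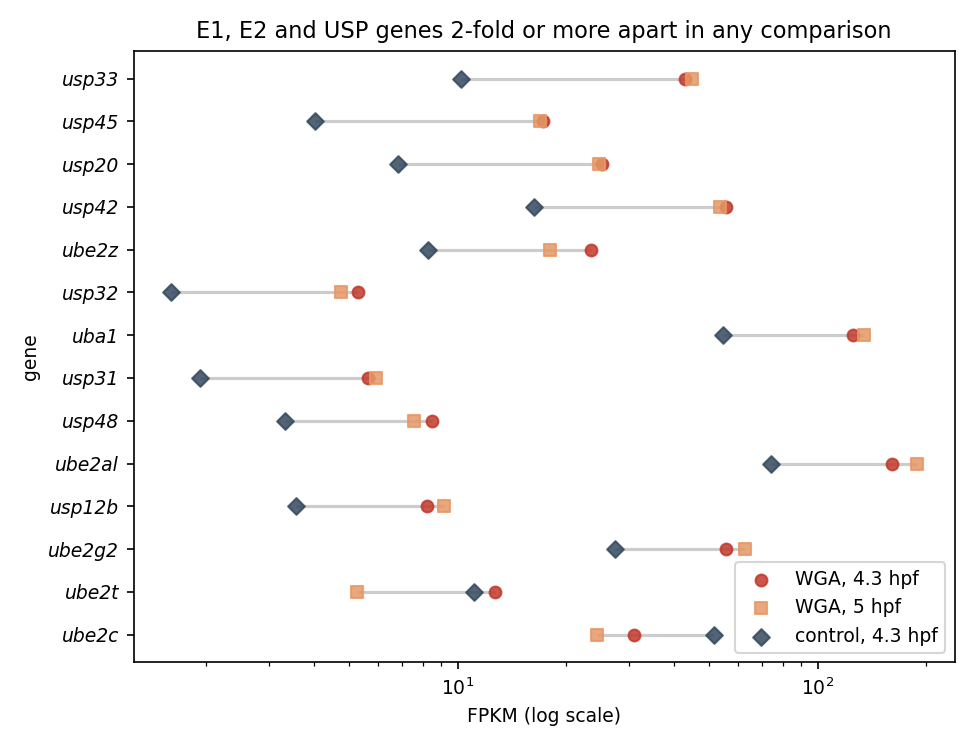
FPKM (log scale) of the 14 enzyme genes that were 2-fold or more apart in any comparison, with 1 point per library (WGA at 4.3 hpf, WGA at 5 hpf, control at 4.3 hpf). For the upper 12 genes, both WGA points lie to the right of the control point and close to each other; ube2t and ube2c, at the bottom, break that order.

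The largest differences were in ubiquitin-specific proteases. The gene usp33 (NCBI Gene 406508), whose human counterpart binds the von Hippel-Lindau protein and trims ubiquitin from receptors, stood at 42.94 FPKM in WGA embryos at 4.3 hpf, 44.8 FPKM in WGA embryos at 5 hpf and 10.19 FPKM in control embryos. It was 3.93-fold higher at the matched time and 4.09-fold higher at the matched stage, the one member past 4-fold in either comparison. The background share of genes that far above control was 0.638% at the matched time, where 0 members reached it, and 0.572% at the matched stage. Its close relative usp20 (393962), which shares those partners in human cells, was at 25.17 and 24.68 FPKM in WGA embryos at 4.3 and 5 hpf and at 6.85 FPKM in control embryos. That made it 3.33-fold and 3.27-fold higher. Where genes are alike, estimated sharing of reads could move counts from one to the other, which was not tested. The sum of both was 68.11 and 69.48 FPKM in WGA embryos against 17.04 FPKM in control embryos, 3.83-fold and 3.91-fold higher.

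Other USP genes with high ratios act, as known from human cells, on DNA repair, chromatin and membranes. The gene usp45 (564004), which deubiquitinates the repair nuclease subunit ERCC1, was at 17.28 and 16.89 FPKM in WGA embryos at 4.3 and 5 hpf and at 4.02 FPKM in control embryos, 3.64-fold and 3.56-fold higher. The gene usp42 (327528), linked to p53 and histone H2B, was at 55.61 and 53.69 FPKM in WGA embryos and at 16.27 FPKM in control embryos, 3.28-fold and 3.17-fold higher. In all 4 of these genes the WGA libraries differed from each other by at most 1.04-fold. The membrane-anchored protease gene usp32 (557981) was at 5.3 and 4.74 FPKM in WGA embryos and at 1.6 FPKM in control embryos. The gene usp31 (564487) was at 5.64 and 5.93 FPKM in WGA embryos and at 1.92 FPKM in control embryos, and usp48 (100332674), which acts on histone H2A in human cells, at 8.51 and 7.56 FPKM in WGA embryos and at 3.32 FPKM in control embryos. These 3 were 2.42-fold, 2.27-fold and 2.2-fold higher at the matched time. At the matched stage they were 2.21-fold, 2.37-fold and 1.98-fold higher, so that usp48 was just under 2-fold there.

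The paralogs usp12a, usp12b and usp46 encode proteases that need the WD-repeat proteins Wdr48 and Wdr20 for activity. The gene usp12b (559878) was at 8.24 FPKM in WGA embryos at 4.3 hpf, 9.19 FPKM in WGA embryos at 5 hpf and 3.56 FPKM in control embryos, 2.03-fold and 2.23-fold higher. The gene usp12a (565736) was at 11.6 and 9.28 FPKM in WGA embryos and at 5.44 FPKM in control embryos, 1.96-fold and 1.6-fold higher. The gene usp46 was close to level, at 6.55 and 7.57 FPKM in WGA embryos and at 5.93 FPKM in control embryos. The sum of the 3 paralogs, which is safer where reads are shared, was 1.72-fold and 1.7-fold higher, and under median-of-ratios scaling usp12b itself was under 2-fold at the matched time, at a log2 ratio of 0.95. Of the partner genes, wdr20a was at 65.85 and 68.46 FPKM in WGA embryos and at 31.67 FPKM in control embryos, log2 ratios of 1.03 and 1.09. Its copy wdr20b was low, at 3.23 and 2.72 FPKM in WGA embryos and at 2 FPKM in control embryos, and under 2-fold, with log2 ratios of 0.5 and 0.31. Of the Wdr48 genes, wdr48a was at 13.36 and 14.11 FPKM in WGA embryos and at 13.93 FPKM in control embryos, and wdr48b had log2 ratios of 0.31 and -0.07.

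**Figure D2:**
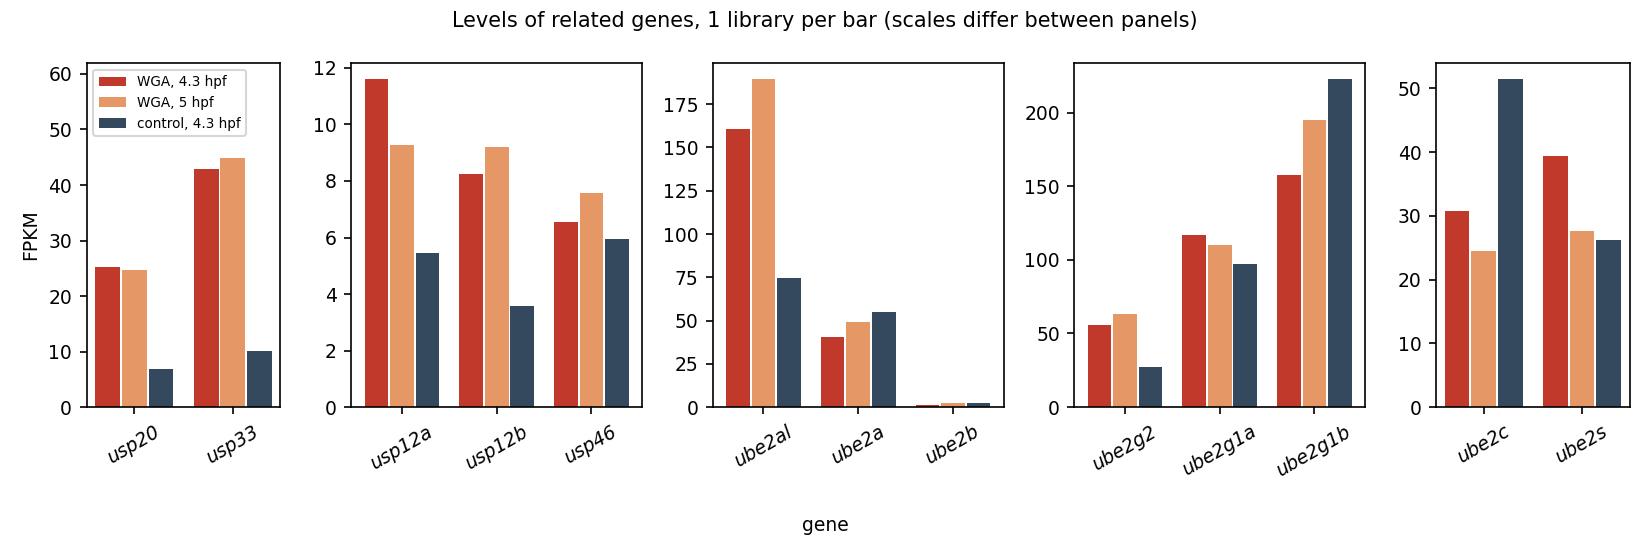
FPKM of related genes, 1 bar per library, in the order WGA at 4.3 hpf, WGA at 5 hpf and control at 4.3 hpf within each gene; the vertical scale differs between panels and starts at 0. Both usp20 and usp33 are higher in the WGA libraries, ube2al is higher while ube2a is not, and ube2c and ube2s, which serve the same ligase, are ordered differently.

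Among the other 32 USP genes no ratio at the matched time reached 2-fold. The 4 with the highest ratios after usp12a were usp30 of the mitochondrial outer membrane, the p53 and Mdm2 regulator usp7, the mitotic checkpoint protease usp44 and the usp7 relative usp47. They were at 14.96, 79.2, 82.68 and 22.59 FPKM in WGA embryos at 4.3 hpf, against 8.12, 46.58, 54.67 and 15.13 FPKM in control embryos, which is 1.75-fold, 1.69-fold, 1.5-fold and 1.46-fold higher. The most abundant USP genes were close to level. The gene usp10 was at 138.81 and 144.5 FPKM in WGA embryos at 4.3 and 5 hpf and at 151.23 FPKM in control embryos, and usp1, which with Wdr48 acts on PCNA and FANCD2, was at 125.46 and 124.27 FPKM in WGA embryos and at 133.34 FPKM in control embryos. Neither differed by more than 1.09-fold. The proteasome-bound proteases usp14 and uchl5 and the free-chain proteases usp5 and usp13 also stayed within 1.31-fold of control in both comparisons. So did the spliceosomal relative usp39, which lacks the active-site cysteine, and usp16, which acts on histone H2A. The lowest USP ratio was that of usp54a, at 2.41 and 2.73 FPKM in WGA embryos and at 4.88 FPKM in control embryos, 1.72-fold and 1.58-fold lower.

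By role, the genes 2-fold or more above control were spread over several lists. Of 12 deubiquitinases of chromatin and histones, 3 were higher by 2-fold or more at the matched time (usp42, usp48 and usp12b) and 0 lower, with a median log2 ratio of 0.49. Of 11 of endosomes and membranes, 3 were higher (usp20, usp32 and usp33) and 0 lower, with a median of 0.49. Of 7 of DNA repair and checkpoints, 1 was higher (usp45) and 0 lower, with a median of 0.42. At the matched stage the counts higher were 2 of 12, 3 of 11 and 1 of 7, with medians of 0.33, 0.35 and 0.04. In both comparisons the median of the endosome and membrane list is the ratio of usp2a, a gene near the level threshold. It was at 1.38 and 1.16 FPKM in WGA embryos at 4.3 and 5 hpf and at 0.7 FPKM in control embryos. Both usp2a and usp54b of that list reached 1 FPKM in WGA embryos alone. Over all genes tested the median was 0.03 at the matched time, with 7.21% of genes 2-fold or more higher and 8.97% lower, and -0.02 at the matched stage, with 5.3% higher and 7.92% lower. In lists this small, 1 gene moves the share higher by more than that of all genes. These roles are known mainly from human cells, and the lists were assigned from that knowledge.

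The 7 OTUD and 3 UCHL genes held no member 2-fold apart in any comparison. Over all genes, 7.21% were higher and 8.97% lower by that much at the matched time, and 5.3% and 7.92% at the matched stage. In families this small, a count of 0 does not set them apart from all genes. Of the OTUD genes, otud7b, whose human counterpart prefers chains linked through lysine 11 of ubiquitin, had the highest ratio, at 18.36 and 14.59 FPKM in WGA embryos at 4.3 and 5 hpf and at 9.89 FPKM in control embryos. It was 1.78-fold and 1.43-fold higher. The most abundant, otud4, was at 95.75 and 98.89 FPKM in WGA embryos and at 78.59 FPKM in control embryos. The other 5 (otud1, otud3, otud5a, otud5b and otud6b) had log2 ratios of -0.23 to 0.42 at the matched time and -0.31 to 0.28 at the matched stage. Between the WGA libraries the OTUD median was -0.29, against -0.05 for all genes. The gene uchl1, abundant in mammalian oocytes and neurons, was at 297.47 FPKM in WGA embryos at 4.3 hpf, the highest level of any member in any library, at 227.97 FPKM in WGA embryos at 5 hpf and at 203.36 FPKM in control embryos. It was thus 1.46-fold higher at 4.3 hpf and 1.12-fold higher at 5 hpf. The gene uchl3 was at 76.11 and 88.11 FPKM in WGA embryos and at 80.68 FPKM in control embryos, and uchl5 was at 16.46 and 17.25 FPKM in WGA embryos and at 16.81 FPKM in control embryos.

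Of the activating enzymes, the one for ubiquitin itself differed, and the other 3 members did not reach 2-fold. The gene uba1 (406335), the main ubiquitin E1, was at 125.78 FPKM in WGA embryos at 4.3 hpf, 134.7 FPKM in WGA embryos at 5 hpf and 54.5 FPKM in control embryos, 2.28-fold and 2.45-fold higher. The SUMO E1 gene uba2 was at 103.41 and 106.19 FPKM in WGA embryos and at 123.27 FPKM in control embryos. The NEDD8 E1 gene uba3 was at 67.51 and 61.39 FPKM in WGA embryos and at 49.67 FPKM in control embryos. In control embryos uba2 was thus the most abundant E1 transcript, and in both WGA libraries uba1 was. The second ubiquitin E1, uba6, is listed under a clone name and so is no member. It was at 10.79 and 10.2 FPKM in WGA embryos and at 6.84 FPKM in control embryos, log2 ratios of 0.59 and 0.51.

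Among the E2 genes, 3 of 37 were higher by 2-fold or more at the matched time and 0 lower, and at the matched stage the same 3 were higher and 1 was lower. The share higher at the matched time, 8.11%, was close to the 7.21% of all genes, of which 8.97% were lower. At the matched stage 8.11% were higher and 2.7% lower, against 5.3% and 7.92% of all genes. The gene ube2z (436602), whose human protein is loaded by UBA6 and not by UBA1, was at 23.49 and 18.12 FPKM in WGA embryos at 4.3 and 5 hpf and at 8.29 FPKM in control embryos, 2.64-fold and 2.06-fold higher. The gene ube2g2 (550464), an E2 of the degradation of misfolded proteins at the endoplasmic reticulum, was at 55.6 and 63 FPKM in WGA embryos and at 27.29 FPKM in control embryos. Its log2 ratio of 1.0005 at the matched time lay just past the threshold, and at the matched stage it was 2.26-fold higher. The other E2 genes of that route lay within 2-fold of control. The gene ube2g1a had log2 ratios of 0.26 and 0.18, ube2g1b of -0.5 and -0.19, ube2j1 of 0.2 and 0.16, and ube2j2 of -0.17 and -0.18.

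The Rad6-type E2 enzymes, which ubiquitinate histone H2B and PCNA, differed from one another. The gene ube2al (325470), named as an ube2a-like gene, was at 160.93 FPKM in WGA embryos at 4.3 hpf, 189.42 FPKM in WGA embryos at 5 hpf and 74.37 FPKM in control embryos, 2.15-fold and 2.53-fold higher. In contrast ube2a (797853) was at 40.56 and 49.25 FPKM in WGA embryos and at 54.84 FPKM in control embryos, 1.34-fold and 1.11-fold lower. Under scaling to the ribosomal protein genes its log2 ratios were 0.3 and 0.21, below the all-gene medians of 0.69 and 0.31 on that scale. The third, ube2b, was low, at 1.27 and 2.19 FPKM in WGA embryos and at 2.63 FPKM in control embryos. Since reads can be shared between such copies, their sum is the safer value. It was 203 and 241 FPKM in WGA embryos and 132 FPKM in control embryos, 1.53-fold and 1.82-fold higher. In control embryos ube2al made up the larger part of that sum, as it did in both WGA libraries.

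The E2 pair of the anaphase-promoting complex, the ligase that ends mitosis, lay on opposite sides of control at the matched time, both within 2-fold. At the matched stage ube2c was lower and ube2s was close to level. The gene ube2c (566441), which starts chains on its targets, was at 30.83 FPKM in WGA embryos at 4.3 hpf, 24.43 FPKM in WGA embryos at 5 hpf and 51.44 FPKM in control embryos, 1.65-fold lower at the matched time and 2.06-fold lower at the matched stage. The gene ube2s (565498), which extends those chains, was at 39.44 and 27.66 FPKM in WGA embryos and at 26.22 FPKM in control embryos, 1.49-fold and 1.05-fold higher. Of 16 genes of the complex and its activators, 0 differed by 2-fold in any of the 3 comparisons, and their log2 ratios ran from -0.58 to 0.42 at the matched time. Among all genes, 7.21% were higher and 8.97% lower by that much at the matched time, and 5.3% and 7.92% at the matched stage. Between the WGA libraries it was 0.772% and 0.356%. The count of 0 in a list of this size is a description and was not tested. The call for ube2c at the matched stage did not hold under TPM scaling or under scaling to the ribosomal protein genes, with log2 ratios of -0.996 and -0.69. At the matched time the ribosomal protein scaling put it level with control, at -0.0013, where the median of all genes was 0.69.

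The remaining E2 genes, most of them abundant, lay within 2-fold of control. The 6 ube2d genes, E2 enzymes of many RING ligases, had log2 ratios of -0.15 to 0.58 at the matched time, and their summed level was 418 and 450 FPKM in WGA embryos at 4.3 and 5 hpf and 358 FPKM in control embryos. The highest of them in ratio, ube2d2l, was 1.5-fold and 1.65-fold higher. The most abundant E2 genes in control embryos, ube2g1b, ube2na and ube2l3b, were at 157.52, 182.83 and 163.35 FPKM in WGA embryos at 4.3 hpf, at 194.92, 209.8 and 185.6 FPKM in WGA embryos at 5 hpf and at 222.64, 217.56 and 181.77 FPKM in control embryos. The pairs that make chains linked through lysine 63, ube2na and ube2nb with ube2v1 and ube2v2, had log2 ratios of -0.49 to -0.18 at the matched time and -0.46 to -0.05 at the matched stage, and under scaling to the ribosomal protein genes all 4 were positive at the matched time and all but ube2v2 at the matched stage. The SUMO E2 genes ube2ia and ube2ib summed to 150 and 123 FPKM in WGA embryos and 171 FPKM in control embryos, and the NEDD8 E2 gene ube2f was 1.4-fold and 1.35-fold higher. Of the rest, the ube2e, ube2k, ube2l3, ube2q, ube2h, ube2r2, ube2o and ube2w genes were all within 1.46-fold of control in both comparisons. A list of 7 E2 genes of DNA damage tolerance and repair held ube2a and ube2b but not ube2al. Of those 7, 0 were 2-fold apart from control in either comparison, with medians of -0.25 and -0.19. Among all genes, 7.21% were higher and 8.97% lower by that much at the matched time, and 5.3% and 7.92% at the matched stage. In a list this small, a count of 0 does not set it apart from all genes. The Rad6-type gene ube2al, left out of that list, was 2.15-fold and 2.53-fold higher. Under scaling to the ribosomal protein genes the list medians were 0.48 and 0.17, where the medians of all genes were 0.69 and 0.31. Over all 37 E2 genes the summed level was 2297 FPKM in WGA embryos at 4.3 hpf, 2464 FPKM in WGA embryos at 5 hpf and 2339 FPKM in control embryos. For the 50 deubiquitinases it was 1845, 1741 and 1481 FPKM in that order, of which the USP genes made up 1238, 1206 and 1003 FPKM.

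**Figure D3:**
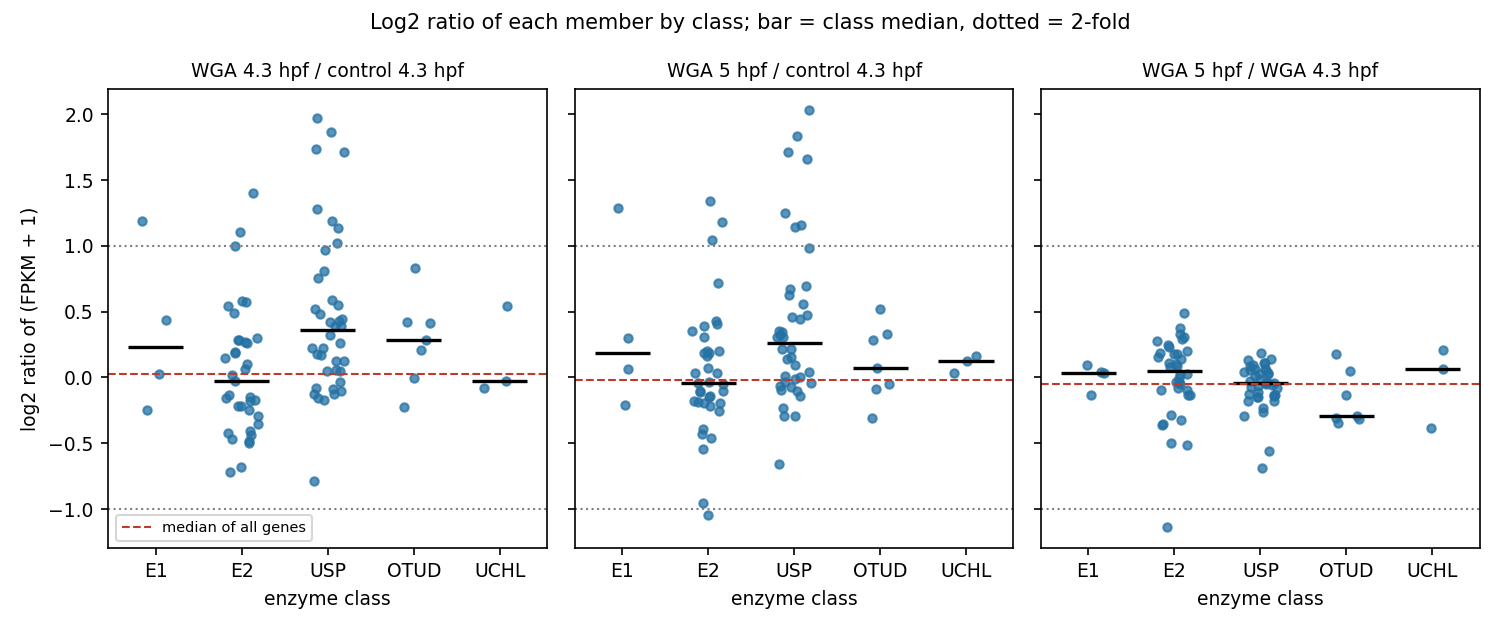
Log2 ratio of (FPKM + 1) of each member (points) by enzyme class in the 3 comparisons; black bars are class medians, the dashed line is the median of all genes and dotted lines mark 2-fold. The USP genes spread upward against control in both WGA libraries, while between the WGA libraries 1 E2 gene, ube2t, passes 2-fold; the 1 member outside these classes is not plotted.

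By class, the median log2 ratio at the matched time was 0.36 for 40 USP genes (SD over members 0.62), 0.28 for 7 OTUD genes (SD 0.34) and -0.03 for 37 E2 genes (SD 0.49). At the matched stage the medians were 0.26, 0.07 and -0.04. Each other scaling shifts all genes together, so the class medians are read against the all-gene median on the same scale. Under scaling to the ribosomal protein genes, the one with the largest shift, the medians at the matched time were 1.01 for the USP genes and 0.7 for the E2 genes, with 0.69 for all genes. Members of 1 class are different genes and not replicates, so the medians are a description and were not tested against each other. By level, 21 members averaged under 10 FPKM over the 3 libraries and 4 of them (19.0%) were higher by 2-fold or more at the matched time, against 5.3% of all genes at that level. At 10 to 50 FPKM it was 6 of 37 (16.2%), against 11% of genes, and above that 2 of 34 (5.88%), against 4.6%. The 4 members under 10 FPKM (usp12b, usp31, usp32 and usp48) all fell below 2-fold with a pseudocount of 5.

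Ubiquitin itself is made from precursors, and the 3 described here lay below control in the deposited values, though ubc did not under scaling to the ribosomal protein genes, nor did ubb at the matched time. The gene rps27a, which encodes ubiquitin joined to a ribosomal protein, was at 54.58 and 72.66 FPKM in WGA embryos at 4.3 and 5 hpf and at 98.19 FPKM in control embryos, log2 ratios of -0.84 and -0.43. The polyubiquitin genes ubb and ubc, which encode ubiquitin repeats, were at 200.35 and 825.82 FPKM in WGA embryos at 4.3 hpf, at 220.21 and 884.16 FPKM in WGA embryos at 5 hpf and at 319.21 and 1092.21 FPKM in control embryos. Cytosolic ribosomal protein genes had median log2 ratios of -0.73 and -0.37 over 79 genes, rps27a among them. Scaling to those put the all-gene median at 0.69 for the matched time and 0.31 for the matched stage, in place of 0.03 and -0.02. On that scale rps27a was at -0.11 and -0.064, ubb at 0.065 and -0.17, and ubc at 0.33 and 0.065.

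Between the WGA libraries, 5 against 4.3 hpf, the members were close to level. Of 91 members tested, 0 were higher by 2-fold or more and 1 was lower, against 0.772% of 13478 genes higher and 0.356% lower, and the median log2 ratio was -0.01 (SD over members 0.26). At 1.5-fold, 1 was higher and 2 were lower, against 2.26% and 4% of genes. The one 2-fold lower was ube2t (768152), the E2 of the Fanconi anaemia repair pathway, at 5.25 FPKM in WGA embryos at 5 hpf and 12.74 FPKM in WGA embryos at 4.3 hpf, 2.2-fold lower, with 11.09 FPKM in control embryos. Among the wider pathway genes, the RING genes rnf7 and rnf8 showed the same order, at 3.34 and 6.64 FPKM in WGA embryos at 5 hpf and at 8.74 and 16.18 FPKM in WGA embryos at 4.3 hpf. The other enzyme gene past 1.5-fold was usp22, the deubiquitinase of the SAGA coactivator, at 4.49 FPKM in WGA embryos at 5 hpf and 7.83 FPKM in WGA embryos at 4.3 hpf, 1.61-fold lower. Of the 12 members that were 2-fold or more higher at the matched time, the 2 with the largest change between the WGA libraries were ube2z and ube2al, 1.28-fold lower and 1.18-fold higher at 5 hpf.

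**Figure D4:**
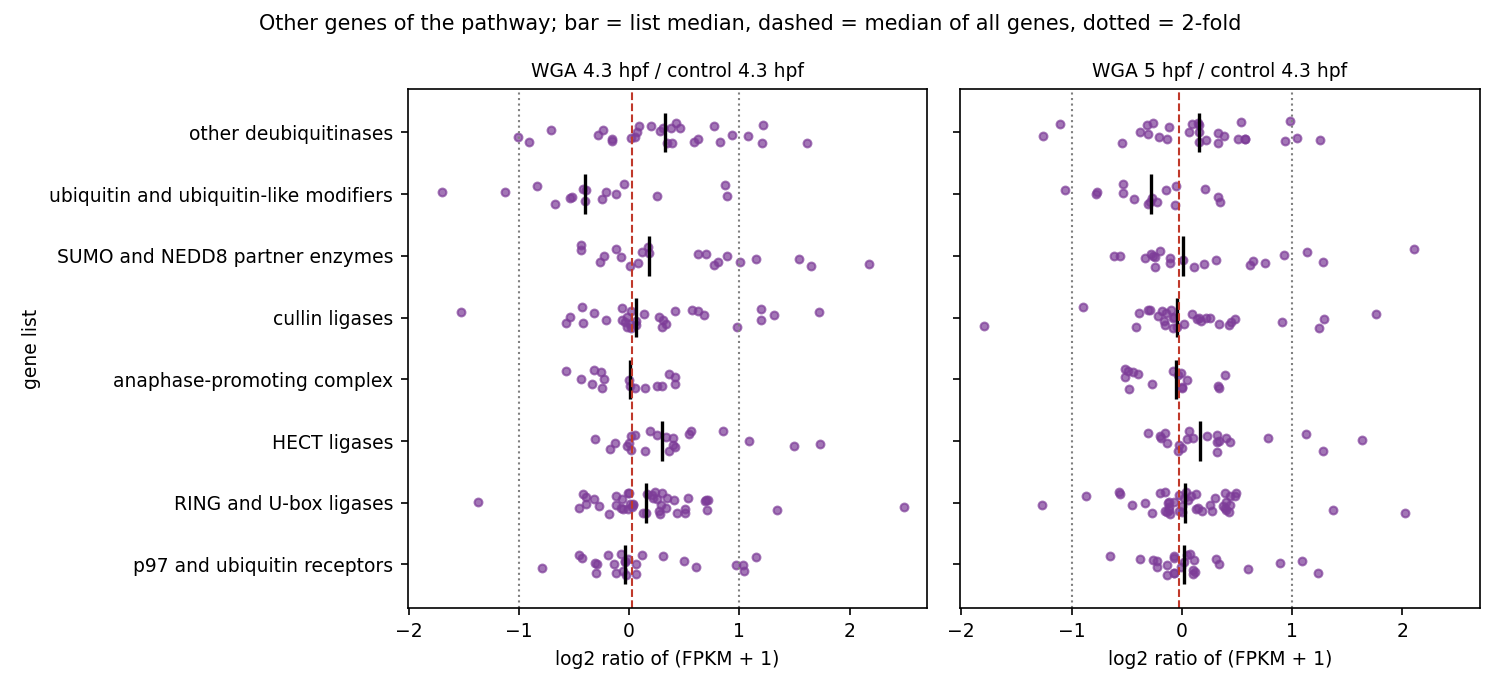
Log2 ratio of (FPKM + 1) of genes in 8 lists of other pathway genes (points), WGA at 4.3 hpf (left) and WGA at 5 hpf (right) over control; bars are list medians, the dashed line is the median of all genes and dotted lines mark 2-fold. Single genes of most lists pass 2-fold to the right, while the median of the modifiers is the lowest of the 8 (-0.4 and -0.28), and is still the lowest at the matched time under scaling to the ribosomal protein genes, where it is 0.32.

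Beyond these enzymes, 8 lists of other ubiquitin pathway genes were counted in the same way, and their counts are to be read against 7.21% of all genes higher and 8.97% lower at the matched time. In 7 of the lists at least 1 gene was 2-fold or more apart from control, and in that of the anaphase-promoting complex 0 were. Of 28 other deubiquitinases tested, 4 were higher by 2-fold or more at the matched time and 1 lower, with a median of 0.32. That list also took in relatives that act on other substrates, such as the SUMO protease gene uspl1, the deneddylase gene cops5, the deadenylation gene pan2 and the glycosylation gene alg13. Of these, uspl1 is among the 4 and was at 33.73 and 22.3 FPKM in WGA embryos at 4.3 and 5 hpf and at 10.32 FPKM in control embryos. The others that were higher were cylda, josd1 and fam188a (now mindy3), at log2 ratios of 1.21, 1.21 and 1.07, and the histone H2A deubiquitinase gene bap1 was lower at -1.01. Of 21 partner enzymes of SUMO and NEDD8, 5 were higher and 0 lower, with a median of 0.18. The gene dcun1d1, which promotes the joining of NEDD8 to cullins, was at 58.52 and 55.75 FPKM in WGA embryos and at 12.2 FPKM in control embryos, log2 ratios of 2.17 and 2.1. Its relative dcun1d3 had ratios of 1.54 and 1.29, and the SUMO protease gene senp6b 1.65 and 1.14.

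Cullin and RING ligase lists held genes on both sides of control. Of 31 cullin ligase genes 4 were higher by 2-fold or more at the matched time and 1 lower (median 0.06). The F-box gene fbxo11b was at 24.57 and 25.16 FPKM in WGA embryos and at 6.73 FPKM in control embryos, while fbxo5, the Emi1 inhibitor of the anaphase-promoting complex, was at 34.5 and 28.36 FPKM in WGA embryos and at 100.91 FPKM in control embryos. The copy fbxo11a had log2 ratios of 1.32 and 1.29. Of 22 HECT ligase genes 3 were higher and 0 lower (median 0.29), namely ube3a at 52.72 and 49.26 FPKM in WGA embryos against 15.14 FPKM in control embryos, smurf1 and herc3. Of 44 RING and U-box ligase genes 2 were higher, znrf3, which removes Wnt receptors, and rnf111, and 1 was lower, siah1 (median 0.15), and both counts are a smaller share than among all genes. Of 25 genes of p97 and ubiquitin receptors 3 were higher (stam, ubxn2a and wdr20a) and 0 lower (median -0.04). That list also held wdr20a, wdr20b, wdr48a and wdr48b, which are partners of deubiquitinases and neither p97 cofactors nor ubiquitin receptors. Of 16 modifiers tested, 0 were higher and 2 lower, isg15 and the ubiquitin-like fusion gene faua, with a median of -0.4. Under scaling to the ribosomal protein genes that median was 0.32, against 0.69 for all genes.

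At the matched stage, where 5.3% of all genes were higher and 7.92% lower, each of these lists held fewer or as many genes 2-fold or more above control. The counts higher and lower were 2 and 2 of the other deubiquitinases (median 0.15), 3 and 0 of the SUMO and NEDD8 partners (0.01), 3 and 1 of the cullin ligase genes (-0.04) and 3 and 0 of the HECT genes (0.17). For the RING and U-box genes they were 2 and 1 (0.03), for the p97 and receptor genes 2 and 0 (0.02), and for the modifiers 0 and 1 (-0.28). Neither comparison with control is independent of the other, since both use the same control library.

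Close to the level threshold, usp54b was at most 1.06 FPKM and usp2a at most 1.38 FPKM. Just outside were usp18 at most 0.92 FPKM, ube2ql1 at most 0.91 FPKM and usp2b at most 0.9 FPKM. The other matches below 1 FPKM were uba7, ube2e2, a second gene listed as ube2o, usp6nl, usp28, usp43a, usp43b and usp53b, together with usp21, which is listed at 0 in all 3 libraries. The symbol usp6nl fits the rule by its letters, although the gene encodes a Rab GTPase regulator. Of the members, ube2w passed in control embryos alone, at 0.81 and 0.86 FPKM in WGA embryos at 4.3 and 5 hpf and at 1.5 FPKM in control embryos, and usp2a and usp54b passed in WGA embryos alone.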

How the data were processed

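The deposited table gives FPKM, made by the authors, for 25386 genes with NCBI Gene numbers and symbols, rounded to 2 decimals. Per the submitters' processing notes the tools were Trimmomatic 0.36, Bowtie2 2.2.5 and RSEM 1.2.8 with the build GRCz11, with no roles or settings given. The annotation release and any scaling between libraries are not given in the sources used here. Columns were matched to libraries by name, and groups were taken from the sample titles. Relative depth was read from genes at 0.1 to 1 FPKM, with the rounding filled by random values. It was taken as the ratio where genes piled up most above the local mean. This was 0.964 at the matched time and 1 between the WGA libraries, with peaks of only 1.55 and 1.49 times that mean. For the matched stage it moved from 0.958 to 1.05 with the range used and was not resolved.

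Ratios used a pseudocount of 1 and genes at 1 FPKM or more in either library. They were computed with Python 3.11.15, numpy 2.4.6 and pandas 2.3.3. The code was run on simulated libraries with large planted changes in well-expressed genes and little noise. That checks the code and cannot bear on calls near the threshold or in low genes. There was no test, since each group had 1 library. Lists were matched by symbol or, for names alone, through the GRCz12tu gene table, which holds all 92 members. Genes were named if 2-fold or more apart, an E1, OTUD or UCHL gene, abundant in their class, or a close copy of these, with up to 5 genes of large ratio from each other list. Further members, the marker genes, wdr48a, wdr48b, wdr20b, cops5, pan2, alg13, ubc and uba6 were named after their values were seen. The members and lists were chosen with earlier results of these data known. Other pseudocounts, filters and scalings were tried. Some genes are not reported here.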

Additional observations from a re-analysis of the deposited data

Results flagged for a closer look

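The gene ube2t was on opposite sides of control in the WGA libraries, with log2 ratios of 0.18 at 4.3 hpf and -0.95 at 5 hpf, and the WGA libraries differed by -1.14 (5 over 4.3 hpf). With 1 library per group this difference was not tested. It was the one member of 92 that lay on opposite sides of control and differed by 2-fold or more between the WGA libraries.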

How the results depend on the processing

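No paired analysis was possible because each group has 1 library, and for the same reason no replicate could be left out. The 12 members higher at the matched time and the 11 at the matched stage kept their sign throughout, but this could hardly have come out otherwise. A pseudocount added to both libraries cannot turn a sign. Median-of-ratios scaling, the one that lowered these ratios, moved the all-gene median only from 0.03 to -0.04 and from -0.02 to -0.04. A pseudocount of 5 left 7 of the 12 and 7 of the 11. At that setting usp31, usp32 and usp12b were lost in both, usp48 and ube2g2 at the matched time, and ube2z at the matched stage. It also left 0 members lower at the matched stage and 0 lower between the WGA libraries, while a pseudocount of 0.1 gave 2 lower at the matched stage. The share of all genes was not counted at these pseudocounts, so these counts have no background beside them. Median-of-ratios scaling gave 10 and 11 higher, against 5.97% and 5.03% of all genes. Scaling to the ribosomal protein genes gave 37 higher at the matched time, where the share of all genes higher also went up, to 29.6%. It gave 0 lower at the matched stage and 2 lower between the WGA libraries, against 5.86% and 2.98% of all genes. Member medians at the matched time, at the matched stage and between the WGA libraries were 0.87, 0.42 and -0.38 (all genes 0.69, 0.31 and -0.39). TPM scaling gave 13 of 92 members higher at the matched time, where the share of all genes higher also went up, to 11.1%. It gave 0 lower at the matched stage, against 9.97% of all genes. A 1.5-fold bar gave 4 lower at the matched time, 4 lower at the matched stage, and 1 higher and 2 lower between the WGA libraries. Adding 4 genes whose current symbol fits the rule, chosen after seeing the data, changed no count. With 1 library per group, a value was called moved when it shifted by more than 0.24 log2, the spread of all genes between the WGA libraries; depth behind single values is unknown, so low genes such as usp31 and usp32 are the least certain.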
